A study of Homo sapiens with 11 samples.

Results

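The 3 human sestrin genes (SESN1, SESN2 and SESN3), DDIT4 (also called REDD1) and CHAC1 were followed across an RNA-seq experiment on HEK293T cells. They were chosen by name, and all 5 were found, 1 row each, among the 38021 genes of the deposited count table. HEK293T is a human embryonic kidney line that carries the SV40 large T antigen, a viral protein that binds p53. Wild-type cells were treated for 6 h with vehicle (0.1% DMSO), 500 nM Tg, AA147 at 10 µM, or AA132 at 0.1, 0.3, 1, 3, 6, 10, 15 or 30 µM, which makes 11 conditions. Tg is thapsigargin, which inhibits the SERCA pump, drains calcium out of the endoplasmic reticulum (ER) and brings on ER stress, and the series title presents the AA compounds as pharmacological regulators of ER proteostasis. The labels list 1 sample per condition, and the count table has 3 columns, numbered 1 to 3, under every condition name, called libraries here. Nothing in the labels says whether these 3 came from separate cultures, so the p-values measure the spread between the 33 libraries, which may be technical.

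Sestrins are stress-induced proteins that hold back the growth kinase mTORC1. SESN1 and SESN2 bind leucine and, when it is scarce, bind the GATOR2 complex that otherwise lets amino acids switch mTORC1 on. DDIT4 restrains the same kinase by another path, through the TSC complex. CHAC1 is an enzyme that degrades glutathione, the main small antioxidant of the cell. SESN2, DDIT4 and CHAC1 are known targets of ATF4, the transcription factor made when eIF2alpha is phosphorylated under ER stress or amino acid shortage, and CHAC1 also answers to CHOP, the product of DDIT3. SESN1 is known as a p53 target and SESN3 as a FOXO target.

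The libraries held between 32265437 and 37958306 counts in total. Counts were 1406 to 2114 per library for SESN1, 2561 to 13582 for SESN2, 307 to 758 for SESN3, 214 to 1459 for DDIT4 and 166 to 1582 for CHAC1, so all 5 passed the filter on low counts. Vehicle library 1 stood apart: its median distance from the other 2 vehicle libraries was 0.255 log2 units, against a median of 0.079 over the 33 libraries. Vehicle library 2 (0.176) and AA132 10 µM library 1 (0.162) came next, and results that change without any of the 3 are given below with and without it. Of 7 genes listed as HEK293T markers, VIM (median 1297 CPM, counts scaled to library size) and IGF2BP1 (120.4 CPM) were high and PAX2 was low (0.97 CPM). The 8 markers of blood, liver, endothelial, muscle and glial cells summed to at most 0.368 CPM in any library.

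The 250 bases before the RefSeq transcription start are shown for the genes that rose together under Tg (below), with matches to stress-element letters in capitals. They are from GRCh38.p14, 5′ to 3′ on the plus strand, the strand of all 3 genes. CHAC1 is at chr15:40953221-40953470, SESN2 at chr1:28259268-28259517 and DDIT4 at chr10:72273674-72273923.
CHAC1: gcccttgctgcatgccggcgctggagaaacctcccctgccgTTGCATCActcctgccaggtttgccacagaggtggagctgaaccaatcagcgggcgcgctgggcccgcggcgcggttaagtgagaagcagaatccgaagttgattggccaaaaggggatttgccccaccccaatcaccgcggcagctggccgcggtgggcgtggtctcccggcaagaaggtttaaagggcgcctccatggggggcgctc
SESN2: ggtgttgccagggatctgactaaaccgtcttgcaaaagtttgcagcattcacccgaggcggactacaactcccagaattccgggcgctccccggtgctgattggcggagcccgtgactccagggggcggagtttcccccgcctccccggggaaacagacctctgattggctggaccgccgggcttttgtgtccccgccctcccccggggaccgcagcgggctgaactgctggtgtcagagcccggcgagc
DDIT4: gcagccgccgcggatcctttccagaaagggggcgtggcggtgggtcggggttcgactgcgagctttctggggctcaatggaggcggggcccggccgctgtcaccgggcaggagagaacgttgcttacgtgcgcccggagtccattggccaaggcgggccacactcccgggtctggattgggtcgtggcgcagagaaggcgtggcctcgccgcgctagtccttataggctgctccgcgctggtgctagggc
The capitals in CHAC1 are TTGCATCA, the reverse complement of the core of the composite element of ATF4 and CHOP (TGATGNAA), and lie 209 to 202 bases before the start. This core occurred in 3.14% of the 35116 RefSeq windows of the same length. The SESN2 and DDIT4 windows held no match, on either strand, to that core, to the ER stress element (CCAAT and CCACG 9 bases apart, 0.074% of windows), to TGACGTGG of XBP1 and ATF6 (0.612%), to the antioxidant response element core TGACNNNGC (10.9%) or to the cAMP response element TGACGTCA (1.65%). The SESN3 window held none either. SESN1 had 3 windows, of which the one at chr6:109009553-109009802 held 1 antioxidant core on the reverse strand, GCCGCGTCA, 159 to 151 bases before the start. A match is a description of the letters and not a measured binding site.

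In vehicle cells SESN2 was the most abundant of the 5 genes for its length, and SESN3 the least. In CPM per kb of exon, the vehicle means were 21.0 for SESN2, 5.98 for SESN1, 3.48 for DDIT4, 2.64 for CHAC1 and 1.53 for SESN3. With the longest transcript as the length, DDIT4 (3.75) and CHAC1 (3.56) lay closer together, and SESN2 stayed first and SESN3 last. The genes lie on different chromosomes. By GENCODE v44 on GRCh38, SESN1 (10 exons) spans chr6:108984309-109094846 on the minus strand, SESN2 (10 exons) chr1:28259518-28282491 on the plus strand, SESN3 (10 exons) chr11:95165513-95232541 on the minus strand, DDIT4 (3 exons) chr10:72273919-72276036 on the plus strand and CHAC1 (3 exons) chr15:40952962-40956512 on the plus strand. The CHAC1 window above and the SESN1 window with the antioxidant core lie inside these spans. Their distances to the start thus hold for the RefSeq start used and not for the outer end of the gene. Exons of SESN1 and SESN3 overlap antisense genes, and since no use of strand is stated, reads of the 2 partners cannot be told apart.

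**Figure D1:**
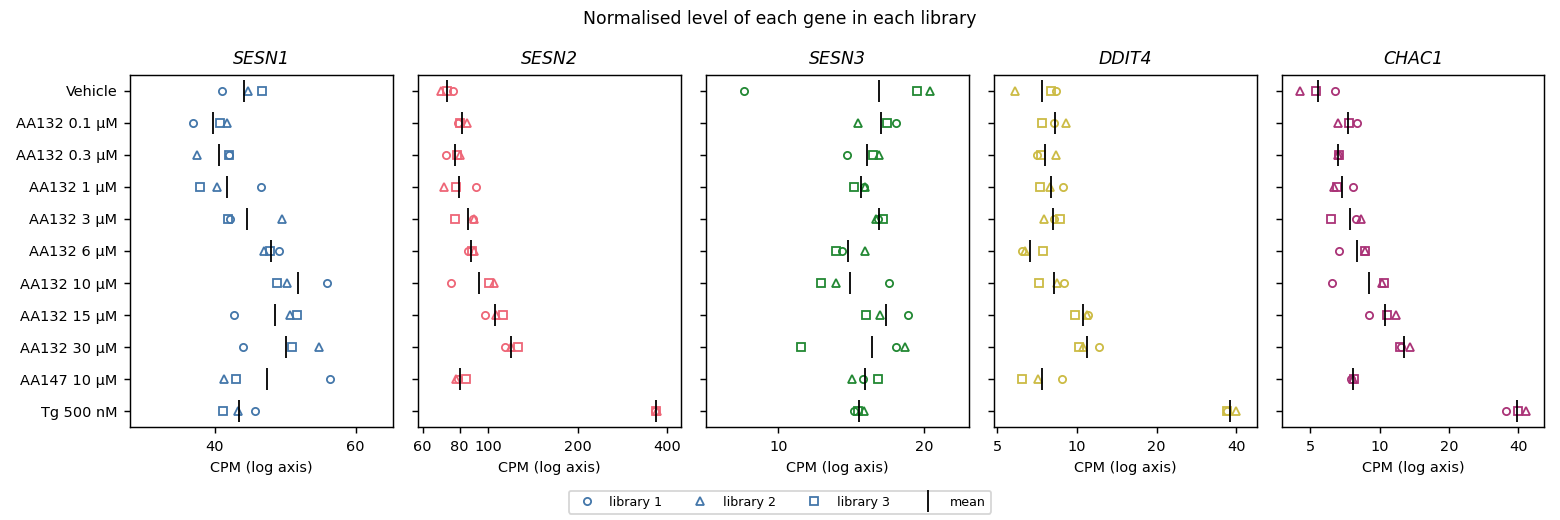
Level of each of the 5 genes (x axis, CPM on a log axis with a different range for each gene) in each of the 11 conditions (y axis). Symbols are the 3 libraries of a condition and the vertical bar is their mean: the Tg libraries of SESN2, DDIT4 and CHAC1 lie to the right of all others, and SESN3 in vehicle library 1 (8.51 CPM) lies far to the left of vehicle libraries 2 and 3.

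Tg raised 3 of the 5 genes several-fold: SESN2, DDIT4 and CHAC1. CPM are shares of each library's RNA, so more cells expressing a gene and more RNA per cell cannot be told apart. Called means an edgeR adjusted p under 0.05 over all 17793 genes tested, and under Tg 31.2% of those genes were called (16.2% higher and 15% lower). SESN2, DDIT4 and CHAC1 were also those of the 5 whose Tg and vehicle libraries did not overlap, as was so for 38.2% of all genes. SESN1 and SESN3 were not called.

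SESN2, a leucine-binding sestrin, had 76.3, 69.5 and 72.5 CPM in the vehicle libraries and 365.3, 370.7 and 367.9 CPM in the Tg libraries. All 3 Tg libraries lay above every other library of the experiment, the highest of which had 125.7 CPM. SESN2 rose 5.06-fold (95% interval 4.44 to 5.76; log2 2.34 ± 0.092 SE; adjusted p = 9.73e-20).

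DDIT4, the mTORC1 inhibitor that acts through the TSC complex, had 8.31, 5.81 and 8.01 CPM in vehicle and 37.0, 39.8 and 36.9 CPM in Tg. Outside Tg no library passed 12.1 CPM. DDIT4 rose 5.14-fold (95% interval 4.29 to 6.15; log2 2.36 ± 0.13 SE; adjusted p = 2.27e-16).

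CHAC1, the glutathione-degrading enzyme, had 6.43, 4.51 and 5.30 CPM in vehicle and 35.5, 43.2 and 39.8 CPM in Tg, and outside Tg no library passed 13.5 CPM. Its rise was the largest of the 5 in point estimate, at 7.29-fold (95% interval 5.87 to 9.06; log2 2.87 ± 0.15 SE; adjusted p = 2.08e-16). The calls of SESN2, DDIT4 and CHAC1 held in each of the 33 fits that left out 1 library.

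SESN1, the sestrin known as a p53 target, stayed near its vehicle level under Tg. It had 40.8, 44.02 and 45.8 CPM in vehicle and 44.9, 42.8 and 41.0 CPM in Tg, and the libraries interleave. The log2 change was -0.022 (95% interval -0.22 to 0.18, adjusted p = 0.894), which leaves out a rise or fall of the size seen in the other 3 genes.

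SESN3 had 8.51, 20.6 and 19.4 CPM in vehicle, so vehicle library 1 had less than either of the others, and 14.3, 15.0 and 14.6 CPM in Tg. The Tg values lie between the low and the high vehicle libraries. The log2 change was -0.14 (95% interval -0.51 to 0.23, adjusted p = 0.608). Without vehicle library 1 it was -0.45 (adjusted p = 0.00847), a call that rests on leaving that library out.

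**Figure D2:**
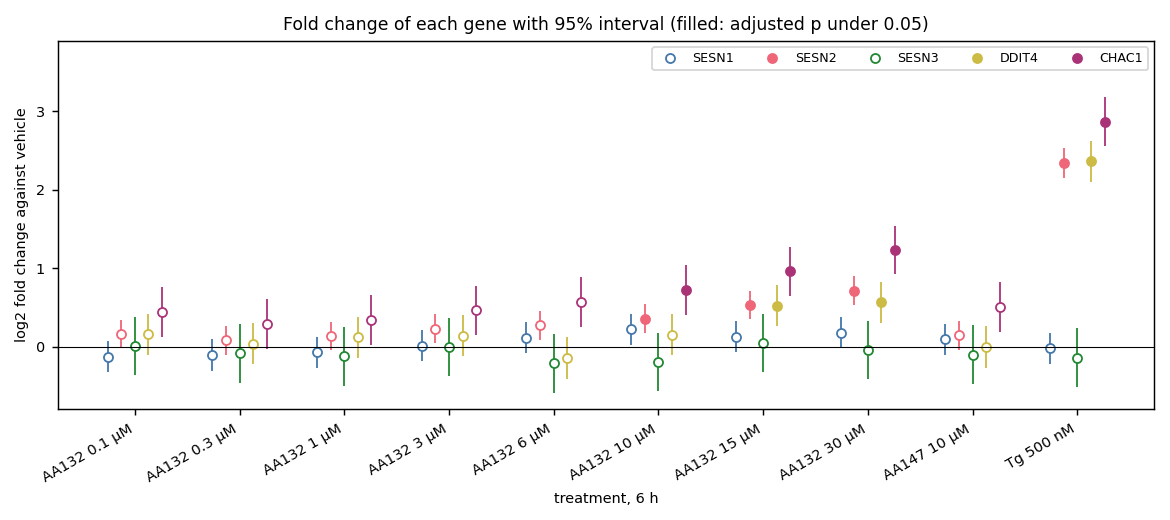
Fold change of each gene against vehicle (y axis, log2) under each treatment (x axis), from 1 edgeR fit of 33 libraries. Points are estimates, bars are 95% intervals and filled points are called: SESN2, DDIT4 and CHAC1 are filled at 15 µM and 30 µM AA132 and at Tg, and SESN1 and SESN3 are open throughout.

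AA132 raised SESN2, DDIT4 and CHAC1 at its higher doses. CHAC1 and SESN2 were called from 10 µM and DDIT4 from 15 µM. At 0.1, 0.3 and 1 µM 0 of the 5 genes were called (0% of all genes for each dose), at 3 µM again 0 (0.118%) and at 6 µM 0 (1.07%). At 10 µM 2 were called (1.41% of all genes), at 15 µM 3 (2.76%) and at 30 µM 3 (7.05%), and every called gene was higher than in vehicle. The count of genes whose libraries lay wholly apart from vehicle was 2 of 5 at 0.1 µM (7.28% of all genes), SESN2 and CHAC1. For 0.3 µM it was 1 (8.25%), for 1 µM 0 (7.86%) and for 3 µM 1 (11.2%). For 6 µM it was 3 (14.8%), SESN1 among them, then 1 for 10 µM (10.3%), which was SESN1, 3 for 15 µM (16.1%) and 3 for 30 µM (18.9%). At an unadjusted p under 0.05, edgeR gave CHAC1 alone of the 5 at 0.1 µM (4.47% of all genes) and 1 µM (5.94%). It gave 0 of the 5 at 0.3 µM (5.51%), and both SESN2 and CHAC1 at 3 µM (9.19%) and 6 µM (12.3%). At 10 µM it gave SESN1 beside SESN2 and CHAC1 (12.9%). Of the 5 genes DESeq2 called 0 at 0.1, 0.3, 1 and 3 µM, where it called 1, 7, 0 and 74 of 30096 genes. At 6 µM it called CHAC1 alone of the 5 (344 of 30096 genes).

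SESN2 had 78.9, 84.7 and 80.3 CPM at 0.1 µM; 71.7, 80.5 and 78.5 CPM at 0.3 µM, and 91.0, 70.7 and 77.7 CPM at 1 µM. It then had 89.1, 89.5 and 77.2 CPM at 3 µM, 85.7, 89.5 and 88.0 CPM at 6 µM, and 74.9, 104.4 and 100.2 CPM at 10 µM. All 3 libraries at 6 µM lay above every vehicle library, but at 10 µM library 1 fell back among the vehicle values. At 15 µM SESN2 had 97.6, 106.2 and 111.7 CPM and the 30 µM libraries 113.9, 118.9 and 125.7 CPM, with no overlap between the 2 doses. Its log2 change was 0.36 at 10 µM (adjusted p = 0.0321), 0.53 at 15 µM (0.000294) and 0.71 ± 0.089 SE at 30 µM (1.59e-06), the last a 1.64-fold rise. The ordered means put vehicle lowest (72.8 ± 3.40 SD, n = 3) and Tg highest (368.0 ± 2.71), and of the 10 neighbouring pairs only 15 and 30 µM AA132, and 30 µM AA132 and Tg, had libraries that did not overlap.

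CHAC1 was the most responsive of the 5 to AA132 in point estimate. It had 7.97, 6.57 and 7.40 CPM at 0.1 µM, 6.60, 6.60 and 6.67 CPM at 0.3 µM, and 7.65, 6.32 and 6.53 CPM at 1 µM, mostly just above the vehicle libraries. The libraries had 7.87, 8.33 and 6.14 CPM at 3 µM, 6.70, 8.64 and 8.68 CPM at 6 µM, and 6.22, 10.2 and 10.4 CPM at 10 µM. Here too 10 µM library 1 was the low one and lay within the vehicle range. At 15 µM CHAC1 had 9.02, 11.8 and 10.8 CPM and at 30 µM 12.4, 13.5 and 12.2 CPM, all above every vehicle library. The log2 change was 0.57 at 6 µM (adjusted p = 0.0688), 0.72 at 10 µM (0.0076), 0.96 at 15 µM (0.000153) and 1.23 ± 0.15 SE at 30 µM (1.52e-06), the last a 2.35-fold rise. Over the 30 treated libraries, Tg and AA147 included, 27 had more CHAC1 than every vehicle library. The same count was 27 for SESN2, 16 for DDIT4, 12 for SESN1 and 0 for SESN3. All 10 treatments share the same 3 vehicle libraries.

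DDIT4 was called at the highest 2 doses. From 0.1 up to 10 µM its means were, in order of dose, 8.23, 7.58, 8.004, 8.12, 6.66 and 8.18 CPM, against 7.38 ± 1.37 (SD, n = 3) in vehicle. The libraries had 11.01, 10.9 and 9.84 CPM at 15 µM and 12.1, 10.5 and 10.2 CPM at 30 µM, all above every vehicle library. The log2 change was 0.15 at 10 µM (adjusted p = 0.669), 0.52 at 15 µM (0.0187) and 0.57 ± 0.13 SE at 30 µM (0.00506), the last a 1.48-fold rise.

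SESN1 and SESN3 were called at no dose. From 0.1 to 30 µM the SESN1 means were, in order of dose, 39.9, 40.5, 41.4, 43.9, 47.0, 50.8, 47.6 and 49.1 CPM, against 43.5 ± 2.53 (SD, n = 3) in vehicle. The vehicle mean thus falls inside the AA132 range, and no neighbouring pair in the order of the 11 SESN1 means had libraries apart. At 10 µM all 3 SESN1 libraries (55.3, 49.2 and 47.9 CPM) lay above every vehicle library, with a log2 change of 0.22 (adjusted p = 0.313). At 30 µM the log2 change of SESN1 was 0.18 (adjusted p = 0.318). SESN3 means lay between 13.9 CPM (6 µM) and 16.6 CPM (15 µM), with no neighbours apart, and at 30 µM its log2 change was -0.048 (adjusted p = 0.921).

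The 10 µM calls rest on few libraries. SESN2 at 10 µM was no longer called without 10 µM library 2 (log2 0.27, adjusted p = 0.184), 10 µM library 3 (0.30, 0.16), vehicle library 2 (0.32, 0.091) or vehicle library 3 (0.35, 0.0802), and CHAC1 without 10 µM library 2 (0.61, 0.0743), 10 µM library 3 (0.60, 0.0854) or vehicle library 2 (0.60, 0.0587). Without 10 µM library 1, the one that stood apart, both were called, at 0.48 for SESN2 and 0.93 for CHAC1. That library was also low on the other ATF4 and CHOP targets listed below: their median log2 distance from the vehicle mean was 0.26 in it and 0.47 and 0.48 in libraries 2 and 3, and its part in the result was not tested. At 15 µM DDIT4 was no longer called without 15 µM library 1 (adjusted p = 0.0795), 15 µM library 2 (0.0725) or vehicle library 2 (0.0914). At 30 µM all 3 calls held in each of 33 such fits. In a fit of the 30 µM and vehicle libraries alone DDIT4 was not called (0.218), and 74 of 16463 genes were. Such fits of 2 conditions called 0 of the 5 genes at 10 µM (CHAC1 adjusted p = 0.743), where 8 of 16490 genes were called. At 15 µM they called 0 of the 5 (SESN2 0.0539, CHAC1 0.064, DDIT4 0.40) and 46 of 16479 genes. CHAC1 at 6 µM became a call without vehicle library 1 (0.71, 0.0149) or without 10 µM library 1 (0.56, 0.0195).

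Dose was also fitted as a line through the 24 AA132 libraries, without vehicle, as the log2 change per 10-fold dose. Of the 5 genes 4 were called, all upward (18.7% of 17554 genes were called, 9.83% upward). The slope was 0.32 ± 0.056 SE for CHAC1 (adjusted p = 9.38e-05), 0.21 ± 0.034 for SESN2 (3.13e-05), 0.15 ± 0.026 for SESN1 (0.000127) and 0.15 ± 0.051 for DDIT4 (0.0375). SESN1 thus rose along the doses while no single dose differed from vehicle by the test. SESN3 had a slope of -0.015 (95% interval -0.098 to 0.068, adjusted p = 0.85). The DDIT4 slope was not called in 10 of 24 fits each lacking 1 library, nor without the 30 µM dose (0.08, adjusted p = 0.399), and the other 3 held in all 24.

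AA147 was tested at 10 µM only, and none of the 5 genes was called (0 of 5, against 0.0225% of all genes). At an unadjusted p under 0.05 edgeR gave 1 of 5, CHAC1 (6.81% of all genes), and DESeq2 called 0 of 5 (25 of 30096 genes). CHAC1 had 7.52, 7.69 and 7.76 CPM, above all 3 vehicle libraries, and its log2 change was 0.50 (95% interval 0.18 to 0.82, adjusted p = 0.445). SESN2 had 79.1, 77.9 and 83.9 CPM, also above every vehicle library, with a log2 change of 0.14 (adjusted p = 0.815). These were the 2 genes of 5 whose libraries did not overlap, as in 7.46% of all genes. DDIT4 (8.74, 7.10 and 6.19 CPM) overlapped the vehicle libraries, with a log2 change of -0.006 (0.995). SESN1 had 55.7, 41.1 and 42.5 CPM, so library 1 alone was high, and SESN3 had 14.9, 14.2 and 16.1 CPM.

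At 10 µM, the 1 matched dose of the 2 compounds, none of the 5 genes differed between AA132 and AA147 by the test (0 of 5 called, against 0.0674% of all genes; libraries apart in 0 of 5, against 11.3%; 1 pair of compounds compared). The difference, AA132 minus AA147 in log2 units, was 0.21 for SESN2 (95% interval 0.033 to 0.40, adjusted p = 0.503), 0.22 for CHAC1 (-0.084 to 0.53, 0.762) and 0.16 for DDIT4 (-0.11 to 0.42, 0.812). It was 0.13 for SESN1 (-0.068 to 0.33, 0.784) and -0.096 for SESN3 (-0.47 to 0.28, 0.949). These intervals do not show that the compounds act alike. At an unadjusted p under 0.05 there was 1 gene of 5, SESN2 (8.01% of all genes), and DESeq2 called 0 of 5 (67 of 30096 genes). Without AA132 10 µM library 1 SESN2 was called (0.34, adjusted p = 0.0476).

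The highest AA132 dose stayed far below Tg for the 3 responsive genes: 3 of 5 were called, all lower at 30 µM AA132 (29.8% of all genes were called, 15.5% lower), and in all 3 the libraries did not overlap (46.8% of all genes). In log2 units 30 µM AA132 minus Tg was -1.62 for SESN2 (adjusted p = 1.23e-15), -1.80 for DDIT4 (2.41e-13) and -1.64 for CHAC1 (6.9e-11). SESN1 was not called (0.20, adjusted p = 0.13), though it was without 30 µM library 1 (0.28, 0.0491) and in a fit of these 2 conditions alone (0.21, 0.0465), and SESN3 was not (0.094, 0.751).

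Between 10 and 30 µM AA132, 1 of the 5 was called (0.933% of all genes), SESN2, which rose by a further 0.36 log2 units (adjusted p = 0.0404). CHAC1 (0.51, 0.0917) and DDIT4 (0.41, 0.107) were not called, although the libraries of SESN2, CHAC1 and DDIT4 did not overlap between the doses (15.8% of all genes). The SESN2 value falls to 0.23 (0.222) without 10 µM library 1, and the call was also lost in 9 further fits. Those left out 30 µM library 1 (0.098), 2 (0.0999) or 3 (0.158), 6 µM library 1 (0.0507), 2 (0.0506) or 3 (0.0508), 0.3 µM library 3 (0.0517), or Tg library 1 or 2 (0.0509 each). CHAC1 was called without vehicle library 1 (0.0367).

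**Figure D3:**
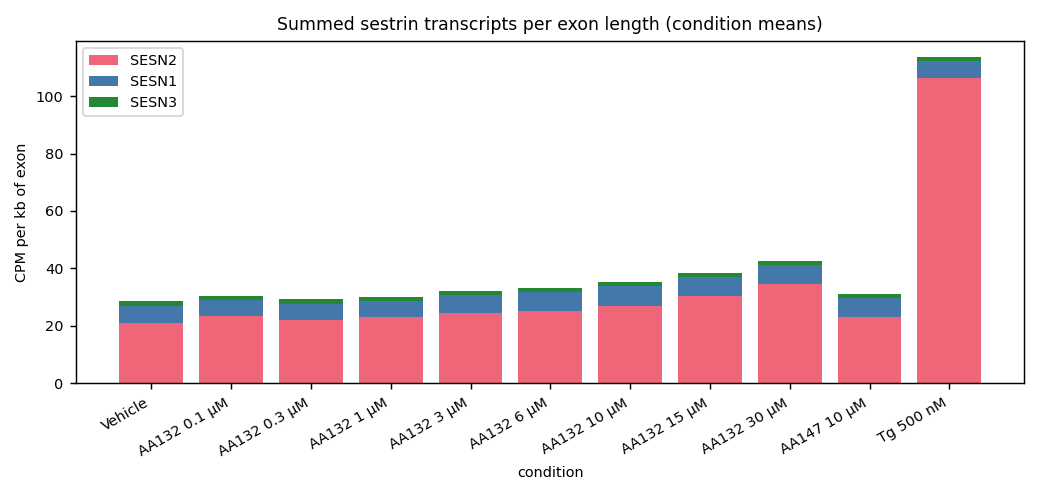
Summed level of the 3 sestrins (y axis, mean CPM per kb of exon) in each condition (x axis), with the SESN2, SESN1 and SESN3 parts stacked. The bar goes from 28.5 in vehicle to 42.7 at 30 µM AA132 and 113.6 in Tg, and nearly all of the added height is SESN2.

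The make-up of the sestrin family differed between conditions, as a description with no test. SESN2 was 73.7 ± 3.29% (SD, n = 3) of the summed sestrin level per kb in vehicle, 74.9 ± 2.85% in AA147, 80.7 ± 1.62% at 30 µM AA132 and 93.6 ± 0.23% in Tg. The summed level was 28.5 CPM per kb in vehicle and 113.6 in Tg.

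**Figure D4:**
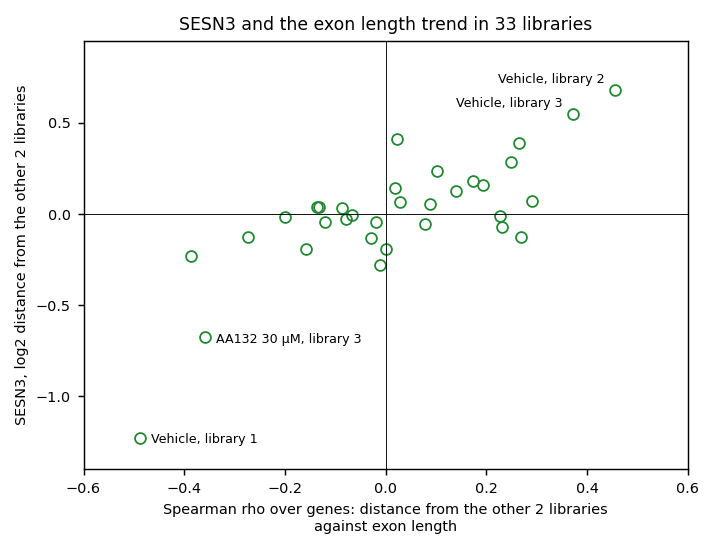
SESN3 in each of the 33 libraries as its log2 distance from the mean of the other 2 libraries of the same condition (y axis), against the Spearman rho over 10906 genes between that library's distances and exon length (x axis). Vehicle library 1, at -1.23 and -0.49, sits at the lower left, and vehicle libraries 2 and 3, which are measured against it, at the upper right.

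The low SESN3 value of vehicle library 1 stood beside a trend over gene length in that library. SESN3 has the longest exon sequence of the 5 genes, with 10578 bases in union. In vehicle library 1, where SESN3 lay 1.23 log2 units below the other 2, long genes in general read low: the rank correlation over 10906 genes between a gene's distance and its exon length was -0.49. The values of vehicle libraries 2 and 3 mirror it by construction, since library 1 is in the mean they are compared with. AA132 30 µM library 3 had a SESN3 distance of -0.68 and a correlation of -0.36. Libraries of other conditions went both ways. AA132 0.1 µM library 2 had a SESN3 distance of -0.23 at a correlation of -0.39, and 6 µM library 3 had -0.125 at -0.27. Against the trend, AA147 library 2 had -0.13 at 0.27 and AA132 1 µM library 3 had -0.07 at 0.23. AA132 10 µM library 1 had 0.41 with almost no length trend (0.022). The part of this trend in the SESN3 values was not tested. In vehicle library 1 the distance was 0.39 for CHAC1, which has 2051 bases of exon, and 0.28 for DDIT4 (2118 bases). It was 0.10 for SESN2 (3462 bases) and -0.14 for SESN1 (7276 bases). Without vehicle library 1 the SESN3 log2 change was also called at 6 µM AA132 (-0.52, adjusted p = 0.0247) and at 10 µM (-0.50, 0.0271), where with all libraries it was -0.21 and -0.20 and not called.

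The profiles over the condition means of log2 CPM were compared by Pearson's r as a description; all points share the same libraries, and over 11 conditions Tg sets most of the value. SESN2 and CHAC1 had an r of 0.99 over 11 conditions and 0.98 over the 10 without Tg. SESN2 and DDIT4 had 0.98 and 0.83, and DDIT4 and CHAC1 0.96 and 0.79. SESN1 followed SESN2 at 0.058 with Tg and 0.69 without. With the 5 genes themselves left out, the genes most like SESN2 were SHMT2 (0.998), TRIB3 (0.998) and SLC1A4 (0.996), and without Tg PSAT1 (0.985), TRIB3 (0.982) and FTL (0.979). Those most like CHAC1 were PSAT1 (0.995), SLC7A5 (0.994) and TMEM214 (0.991), and without Tg SLC7A5 (0.986), SLC1A5 (0.981) and PSAT1 (0.978). For DDIT4 they were DAP (0.983), SHMT2 (0.982) and KLHDC7B (0.982), and without Tg OTOA (0.911), LOC101929056 (0.901) and CDC42EP2 (0.891). The SESN1 means spanned 0.35 log2 units, and FRG2 (0.909), HMOX1 (0.905) and LINC01234 (0.903) came nearest, or DOK1 (0.968), RGCC (0.959) and TTC14 (0.955) without Tg. The SESN3 means spanned 0.25, and the nearest genes, LOC107985247 (0.839), SALRNA1 (0.798) and LOC107985780 (0.795), were less alike. Without Tg they were LOC102723385 (0.878), LOC101928605 (0.85) and UBN2 (0.841).

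**Figure D5:**
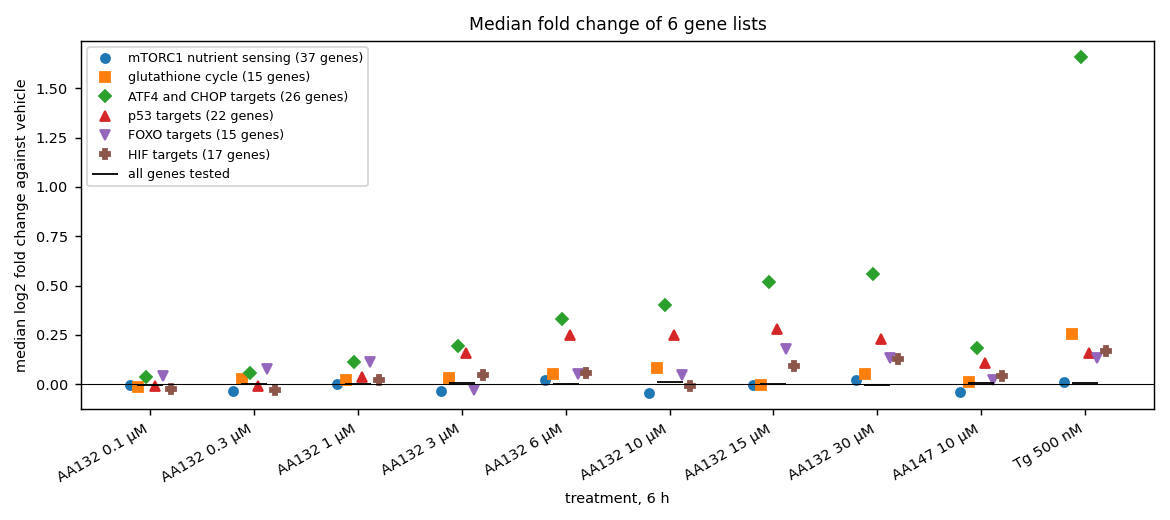
Median log2 fold change against vehicle (y axis) of 6 gene lists under each treatment (x axis), with the 5 genes themselves left out. The ATF4 and CHOP targets reach 0.56 at 30 µM AA132 and 1.66 in Tg, while the mTORC1 nutrient-sensing genes stay near the line of all genes tested.

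The mRNAs of ATF4 and CHOP, known regulators of SESN2, DDIT4 and CHAC1, rose as well. ATF4 mRNA went from 465.8 to 981.7 CPM in Tg (log2 1.08) and rose by 0.45 at 30 µM AA132 (adjusted p = 8.62e-05), and DDIT3, which encodes CHOP, by 3.62 and 1.34. TRIB3, a pseudokinase induced by both, rose by 3.88 and 1.06. The list of 26 ATF4 and CHOP targets holds ATF4, DDIT3 and TRIB3 themselves. Of the 26, 25 rose and 0 fell in Tg (16.2% of all genes rose and 15% fell). Their median log2 change was 1.66 against 0.0049 over all genes. At 30 µM AA132 22 rose and 0 fell, with a median of 0.56 against -0.0013 (3.86% of all genes rose and 3.19% fell). The largest were HERPUD1 (4.12), TRIB3 (3.88) and SLC7A11 (3.65) in Tg, and SLC7A11 (2.77), SLC3A2 (1.36) and DDIT3 (1.34) at 30 µM. Of the 26, 1 rose at 3 µM (0.101% of all genes did), 11 at 6 µM (0.866%), 14 at 10 µM (1.03%) and 18 at 15 µM (1.97%). Under AA147 1 rose (0.00562% of all genes), and the median was 0.18.

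The partners of the sestrins and DDIT4 in mTORC1 nutrient sensing had a median near that of all genes. In Tg 16.2% of all genes rose and 15% fell. Of the 37 partner genes 6 rose, 8 fell and 23 were not called in Tg, with a median log2 change of 0.012. The risers included SEC13 (0.67), a GATOR2 subunit that is also a coat protein of ER-to-Golgi vesicles, and ITFG2 (0.62), of the KICSTOR complex. LAMTOR4 (-0.48), of the lysosomal Ragulator complex, and GATSL2 (-0.70), also called CASTOR2, were among those that fell. GATSL2 has near-identical copies, so its reads are uncertain. At 30 µM AA132 1 of the 37 rose, RRAGC (0.33, adjusted p = 0.012), and 1 fell, KPTN (-0.30, 0.0427). Of all genes 3.86% rose and 3.19% fell at that dose. DDIT4L, the paralog of DDIT4, was near the detection limit at 0.58 CPM in vehicle and was not called in Tg (adjusted p = 0.406).

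Among 15 tested genes of the glutathione cycle, 6 rose and 2 fell in Tg (median 0.26), and 5 rose and 0 fell at 30 µM AA132 (median 0.051). The shares over all genes were 16.2% up and 15% down in Tg, and 3.86% up and 3.19% down at 30 µM. SLC7A11 and SLC3A2, the 2 chains of the cystine importer that feeds glutathione synthesis, are also on the ATF4 list. They rose by 3.65 and 1.35 in Tg, where GGACT rose by 0.99 and GSR, the glutathione reductase, fell by 0.36. GCLM, the modifier subunit of the first enzyme of glutathione synthesis, rose by 1.36 at 30 µM AA132. CHAC2, the paralog of CHAC1, fell by 0.34 in Tg (adjusted p = 0.0264) and at 30 µM was at -0.037 (0.901).

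The lists for p53 and FOXO, the known regulators of SESN1 and SESN3, gave smaller medians than the ATF4 and CHOP targets. On the AA132 dose slope 13 of 22 p53 targets rose and 0 fell (median 0.098), and 5 of 15 FOXO targets rose and 1 fell (0.066). There 24 of the 26 ATF4 and CHOP targets rose and 0 fell (0.20), and 4 of 17 HIF targets rose and 1 fell (0.054). Of all genes 9.83% rose on the slope. For the counts that follow, 16.2% of all genes rose and 15% fell in Tg, and 3.86% rose and 3.19% fell at 30 µM AA132. Of 22 p53 targets 6 rose and 1 fell in Tg (median 0.16), and 7 rose and 0 fell at 30 µM AA132 (median 0.23), where BBC3 (0.60), AEN (0.44) and FAS (0.43) had the largest rises. The first on this list in Tg was GDF15, a secreted stress factor, with 0.166, 0 and 0 CPM in vehicle and 1.66, 1.45 and 1.12 CPM in Tg (adjusted p = 5.4e-07). In Tg BBC3 rose by 0.76 and TNFRSF10B, shared with the ATF4 list, by 0.54, while BAX fell by 0.32. Of 15 FOXO targets 5 rose and 1 fell in Tg (median 0.13), with TXNIP (1.82) and GADD45A (0.92) first, and 3 rose at 30 µM, GADD45A (0.64), BCL6 (0.39) and PINK1 (0.27). Of 17 tested HIF targets, the hypoxia genes among which DDIT4 is often counted, 5 rose and 5 fell in Tg (median 0.17), with VEGFA (1.55), also an ATF4 target, up and CA12 (-0.92) down. At 30 µM 3 rose, NDRG1 (0.48), VEGFA (0.45) and SLC2A1 (0.33), and 1 fell, PDK1 (-0.30).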

How the data were processed

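RNA was extracted with a column kit and sequenced by BGI on the DNBSEQ platform, per the labels' protocols. The authors deposited expected counts per gene (estimated counts, labelled in the file header as total reads), with 0.009 standing for 0 in 43.51% of values. The genome build was GRCh38.p7 per the submitters' processing notes; aligner, counter, annotation and use of strand are not given in the sources used here. Rows sharing a gene name (98 rows, 45 names) were summed, apart from 28 rows with date-like names. Counts were rounded, filtered with filterByExpr, TMM-normalised and tested in 1 quasi-likelihood fit of all 33 libraries with edgeR 4.0.16 in R 4.3.3 (biological coefficient of variation 9.09%, 22 residual degrees of freedom), two-sided, with Benjamini-Hochberg adjustment over all genes. CPM are TMM-scaled, and log2 CPM used a prior count of 2. DESeq2 1.42.0, other scalings, no filter, a replicate block, 2-condition fits and leaving out each library were alternatives. The scripts were tested on simulated data. The 3 columns of a condition differed beyond counting error and were used as 3 replicates. Exon lengths and positions are from GENCODE v44.

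Beside the 5 genes, the text names ATF4, DDIT3, TRIB3, CHAC2 and DDIT4L, the called genes of each list with the up to 3 largest rises and 2 largest falls at a mean of at least 1 CPM (a selection of these is printed), and the 3 genes most like each of the 5 in profile, the 5 left out, among genes whose condition means span at least 1 log2 unit, or 0.5 without Tg. The 5 genes and the lists were chosen with earlier results of these data known. One listed gene is not reported here.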

Additional observations from a re-analysis of the deposited data

How the results depend on the processing

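Under each alternative no value among the 5 genes that was called changed direction. The fit of only the 2 conditions compared called, among the 5, 0 at 10 µM AA132, 0 at 15 µM, 2 at 30 µM and 0 for 30 against 10 µM, from fewer libraries, and 4 in place of 3 for 30 µM AA132 against Tg. With no filter on low counts 1 gene was called at 6 µM and 2 for 30 against 10 µM, and with DESeq2 1 and 3. Leaving out 1 library at a time gave 3 to 4 calls in Tg, 0 to 2 at 6 µM, 0 to 3 at 10 µM, 2 to 3 at 15 µM, 3 to 3 at 30 µM, 0 to 1 for AA132 against AA147, 3 to 4 for 30 µM AA132 against Tg, 0 to 2 for 30 against 10 µM and 3 to 4 for the slope. The cause of these changes was not tested.

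Over all genes, the counts called moved more: 5551 in Tg became 3073 with only the 2 conditions, 1255 at 30 µM became 74, 491 at 15 µM became 46 (802 with DESeq2), 250 at 10 µM became 8 (492 with DESeq2, 411 unfiltered), 190 at 6 µM became 25 (344, 360), 166 for 30 against 10 µM became 2 (519, 346), and the slope's 3286 became 2046 without the 30 µM dose. At 3 µM 21 became 153 unfiltered and 74 with DESeq2, under AA147 4 became 82 and 25, and for AA132 against AA147 12 became 98 and 67. For 30 µM AA132 against Tg the count went the other way, from 5305 to 6238 with only the 2 conditions. Single libraries moved these counts too. Without vehicle library 1 they were 2017 at 30 µM, 651 at 10 µM, 506 at 6 µM, 85 at 3 µM and 511 for 30 against 10 µM, and without vehicle library 2 920 at 15 µM. Over all fits lacking 1 library they ran from 4571 to 5832 in Tg, 700 to 2017 at 30 µM, 267 to 920 at 15 µM, 156 to 651 at 10 µM, 95 to 506 at 6 µM, 0 to 85 at 3 µM, 0 to 15 under AA147, 0 to 77 for AA132 against AA147 and 12 to 511 for 30 against 10 µM, so the shares over all genes move with them.

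The library number as a replicate block changed no call count among the 5 genes in any of the 14 comparisons (3 in Tg, 2 at 10 µM, 3 at 15 µM and 3 at 30 µM). Deviations of same-numbered libraries had a mean r of 0.0031 (from -0.15 to 0.18 over 165 pairs), against -0.0015 for libraries of other numbers. For 13 of 33 libraries the mean r was highest with libraries of their own number. Whether same-numbered libraries were handled together cannot be told from these values. With the longest transcript as the length, vehicle levels per kb were 7.69 for SESN1 and 3.56 for CHAC1, and Tg levels 7.57 for SESN1, 1.53 for SESN3, 19.3 for DDIT4 and 26.0 for CHAC1. A log2 change of 0.57 for CHAC1 at 6 µM was not called, and one of 0.36 for SESN2 at 10 µM was. These are separate comparisons, each with its own adjustment. Counts per library were 214 to 1459 for DDIT4, 166 to 1582 for CHAC1 and higher for SESN2, and the part of depth was not tested.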
